A study of Homo sapiens with 131 samples.

Results

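Chromosome 21 (chr21) was described bin by bin in HAP1 cells sorted from the middle of S phase. It was chosen by its measured copy state: of the 20 chromosomes with bins it had the smallest share of 2-copy (replicated) bins, so that share, the classes and the domains built from the same states are given as description with no test, and tests were run on RNA. Its members were all 793 of its 40-kb bins, 1.39% of the 56881 bins in the series, together with the 657 chr21 genes that had a copy state, of 45404 such genes in all. The bins covered 31.72 Mb between chr21:9720001 and 46640000 (hg38), with 13 gaps that summed to 5200 kb.

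HAP1 is a near-haploid, adherent human line derived from a chronic myeloid leukaemia line. Single cells were sorted by Hoechst staining from the mid-S gate. DNA was held on beads and RNA stayed in solution, which gave 2 libraries per cell. Each bin was called 1-copy (unreplicated) or 2-copy (replicated) from DNA reads, with G1 cells (5 G1 DNA libraries) used to correct mappability. RNA was read near full length from the supernatant, which held mainly cytoplasmic RNA, and was given as spliced RNA (exon reads, in TPM, which are per length) and unspliced RNA (gene-body minus exon reads). The unspliced table is titled TPM, but its sums passed the total that TPM can reach in 6 cells. Per the paper, RNA reads were downsampled to a number per cell equal to that total. The sums therefore do not separate counts from TPM. Of the table's values above 0, 78.7% were not whole, and 0.2 was the most common. The table was read as fractional counts that are not per length, an uncertain inference on which every unspliced value below rests. The labels named 63 mid-S cells. The tables held 56 of them, and 7 were not analysed here. Per the study's methods all came from 1 biological experiment, so each p-value measures the spread between cells of that experiment, which may be in part technical. The replication score, the percent of bins at 2 copies in a cell, ran from 39.7% to 67.2% with a median of 54.1%, and 55 cells scored between 40% and 70%. Depth per cell is not given in the files, apart from summed unspliced counts.

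DNA replication begins at many origins, and neighbouring origins fire at about the same time, so a chromosome is copied as a row of domains from early to late S phase. Gene-rich, GC-rich and transcribed domains are generally copied early, and gene-poor domains late. Chr21 is the smallest human autosome, and its long arm carries a gene-poor inner part and a gene-rich outer part.

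Dividing-cell markers were detected in all 56 cells, with medians of 158 TPM for MKI67 and 314 TPM for PCNA. BCR and ABL1, whose fusion defines the parental leukaemia, had medians of 13.1 and 6.25 TPM. The blood-cell marker PTPRC was at 0 in 55 cells, and CD34 was at 0 in 29. Libraries fell into a set of 27 cells numbered after 65 and a set of 29 numbered up to 65, a split that no label calls a batch. Mitochondrial genes took 2.57% to 5.55% of RNA after 65 and 4.98% to 18.3% up to 65. Median unspliced totals were 568578 after 65 and 812254 up to 65.

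The promoters of 5 genes are shown because their genes carry the results below: the highest spliced RNA of early-S bins (HMGN1), mid-S CCT8, the highest spliced RNA of late-S bins (HSPA13), and the genes with the lowest copy-state p in spliced (RCAN1) and unspliced RNA (BACH1). Each runs 5′ to 3′ on the gene's strand from 250 bases before to 50 bases after the RefSeq start (GRCh38.p14), and capitals mark CG dinucleotides, whose cytosines can be methylated. HMGN1 lies at chr21:39349039-39349338 (minus strand, 34 CG), CCT8 at chr21:29073599-29073898 (minus, 25 CG), HSPA13 at chr21:14383097-14383396 (minus, 21 CG), RCAN1 at chr21:34615064-34615363 (minus, 41 CG) and BACH1 at chr21:29304954-29305253 (plus, 1 CG). The RefSeq start of BACH1 lies inside the gene model of the files, which starts at 29194071, so the BACH1 sequence is not that of the model's start.
HMGN1: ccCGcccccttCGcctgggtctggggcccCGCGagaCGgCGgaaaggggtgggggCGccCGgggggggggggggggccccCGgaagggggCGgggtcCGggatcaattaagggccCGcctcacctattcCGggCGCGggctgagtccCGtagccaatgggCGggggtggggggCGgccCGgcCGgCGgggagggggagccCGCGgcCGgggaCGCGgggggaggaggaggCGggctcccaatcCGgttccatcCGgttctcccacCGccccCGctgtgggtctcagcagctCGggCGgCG
CCT8: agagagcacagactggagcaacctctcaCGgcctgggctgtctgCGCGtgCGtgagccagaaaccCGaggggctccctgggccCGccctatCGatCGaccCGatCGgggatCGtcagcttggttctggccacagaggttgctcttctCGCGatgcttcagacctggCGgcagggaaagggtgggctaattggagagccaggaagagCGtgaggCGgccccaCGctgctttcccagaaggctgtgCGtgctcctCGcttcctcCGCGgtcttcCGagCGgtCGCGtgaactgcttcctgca
HSPA13: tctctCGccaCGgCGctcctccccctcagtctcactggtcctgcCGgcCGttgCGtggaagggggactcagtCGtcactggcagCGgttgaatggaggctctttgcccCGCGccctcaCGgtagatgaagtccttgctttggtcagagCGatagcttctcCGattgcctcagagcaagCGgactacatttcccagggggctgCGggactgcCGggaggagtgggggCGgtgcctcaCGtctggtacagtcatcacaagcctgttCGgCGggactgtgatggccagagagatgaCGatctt
RCAN1: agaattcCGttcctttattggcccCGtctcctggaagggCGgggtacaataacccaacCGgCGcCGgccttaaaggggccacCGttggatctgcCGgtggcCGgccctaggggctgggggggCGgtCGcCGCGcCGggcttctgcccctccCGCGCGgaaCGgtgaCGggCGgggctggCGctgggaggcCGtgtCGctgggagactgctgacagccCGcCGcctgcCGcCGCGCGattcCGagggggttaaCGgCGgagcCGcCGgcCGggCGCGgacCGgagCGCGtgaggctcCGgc
BACH1: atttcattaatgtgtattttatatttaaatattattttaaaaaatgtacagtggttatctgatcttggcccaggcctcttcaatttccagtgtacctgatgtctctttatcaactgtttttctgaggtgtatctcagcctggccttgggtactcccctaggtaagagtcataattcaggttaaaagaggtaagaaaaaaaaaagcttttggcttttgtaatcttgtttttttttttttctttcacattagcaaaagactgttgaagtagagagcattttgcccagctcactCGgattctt

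A RefSeq promoter was matched to 206 of the 657 chr21 genes. In chr21 promoters the median number of CG was 23.5 for early-S genes, 7.5 for mid-S genes and 2 for late-S genes, against 24, 17 and 9 on the other chromosomes. CG was searched on the printed strand, which reads the same on both strands, and was present in 93.2% of chr21 promoters and in 95.8% of all 27305 promoters of that length. Among late-S chr21 genes the median was 20 CG in the 13 promoters of expressed genes and 2 CG in the 63 others. The promoters of 45 keratin-associated protein genes, structural proteins of hair and most of them late-S, had a median of 2 CG and at most 13.

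On average 38.7% ± 8.72 of the called chr21 bins were at 2 copies (SD, n = 55 cells), against 53.9% ± 7.76 on the other chromosomes. The lowest cell had 17.8%, the median 38.2% and the highest 56.98%. Chr21 lay below the other chromosomes in 55 of 55 cells, by 2.54 to 34.1 percentage points. Chromosomes 8 and 18 came next with 43.7% and 46.4%, and chr22, of nearly the same number of bins, was at the other end with 74.1%. Across cells the chr21 share moved with that of the other chromosomes (Pearson's r = 0.739 over 55 cells, which share their libraries).

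**Figure D1:**
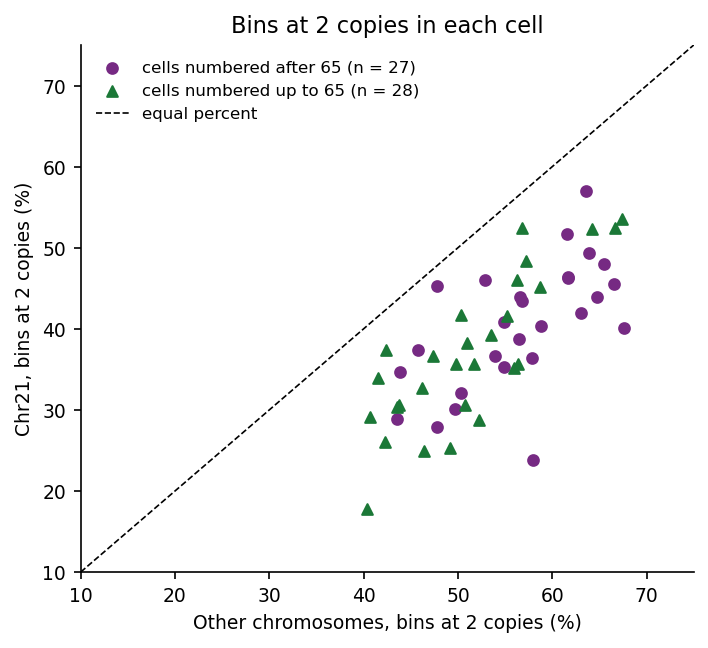
Percent of called bins at 2 copies on chr21 (vertical axis) against that on the other chromosomes (horizontal axis), 1 point per cell, by library set. All 55 cells lie below the line of equal shares, and the lowest reaches 17.8% on chr21.

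The cell with the lowest chr21 share had 17.8% on chr21 against 40.4% elsewhere, and the outermost early-S stretch of the chromosome was at 0% in it. The largest gap was that of a cell with 23.9% against 58.0%, and the smallest that of a cell with 45.3% against 47.8%. The gap averaged −16.2 ± 6.63 points in cells numbered after 65 (n = 27) and −14.3 ± 5.32 points in cells numbered up to 65 (n = 28), a difference of −1.92 points. The ranges of the sets overlapped.

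By the share of cells in which a bin was at 2 copies, its RT value, bins were classed as early-S (above 77.8%), mid-S and late-S (up to 22.2%). Chr21 had 198 early-S, 213 mid-S and 382 late-S bins, or 24.97%, 26.9% and 48.2%, against 37.9%, 33.0% and 29.1% on the other chromosomes. At the early limit the nearest bins had values of 78.2% (10 bins) and 76.4% (4 bins), and at the late limit 23.6% (6 bins) and 22.2% (3 bins). Of the chr21 bins 136 were at 2 copies in 0 cells, 17.2% against 7.10% elsewhere, while 9 bins were at 2 copies in every called cell, 1.13% against 8.86%.

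Within a class chr21 lay below the other chromosomes in 24 of 55 cells for early-S bins, 27 for mid-S and 38 for late-S bins, with median differences of 0.71, 0.35 and −1.35 points. The mean differences were −1.81, −1.27 and −1.09 points, and without the lowest cell of each class they were −1.03 for early-S, −0.72 for mid-S and −0.93 for late-S bins. Its early-S bins were at 2 copies in 91.3% ± 10.9 per cell, against 93.1% ± 5.15 elsewhere (SD, n = 55). For mid-S bins the values were 49.1% ± 19.9 and 50.4% ± 14.99, and for late-S bins 6.17% ± 5.17 and 7.27% ± 4.18. When the percentages of the other chromosomes were weighted by the class sizes of chr21 they came to 40.3% ± 6.95. The classes were cut from the 2-copy shares of these same cells, so values within a class are largely set by its limits. Why the chr21 share was low was not tested.

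Early-S chr21 bins had a median GC content of 44.96%, mid-S bins 38.4% and late-S bins 37.005%, against 41.7%, 38.8% and 37.9% elsewhere. Protein-coding gene starts per Mb numbered 11.4, 4.69 and 3.86 in the chr21 classes and 11.4, 4.65 and 2.58 on the other chromosomes. The late-S value of chr21 rests largely on 1 stretch (D13 below). It held 37 of the 59 late-S coding starts, most of them keratin-associated protein genes. Over all bins chr21 held 5.96 coding starts per Mb against 6.59. Across the 793 bins GC and RT value had a Pearson's r of 0.501, against 0.357 across the bins of the other chromosomes; neighbouring bins share base composition and libraries.

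**Figure D2:**
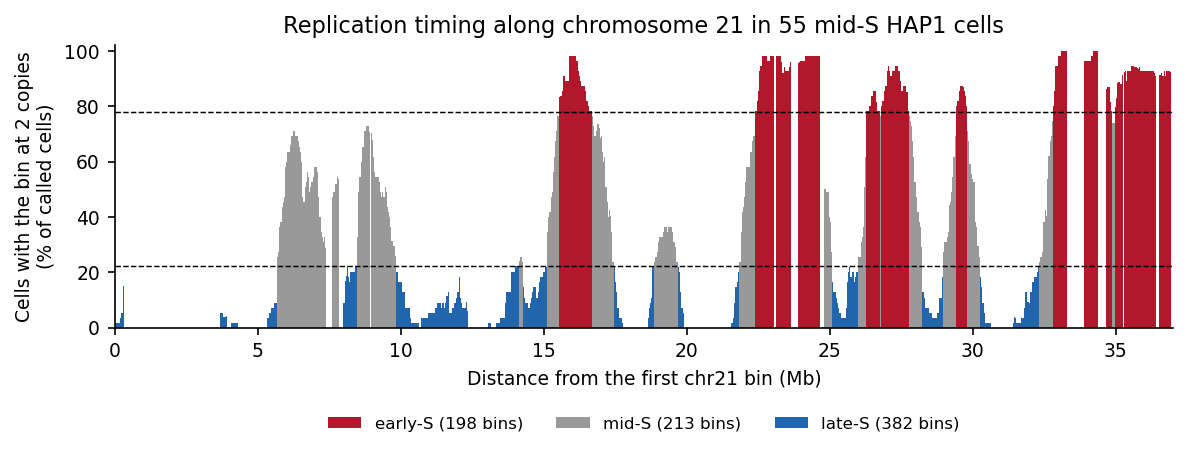
RT value (percent of called cells at 2 copies, vertical axis) of each chr21 bin by distance from the first bin (horizontal axis, Mb), coloured by class. Late-S stretches alternate with mid-S and early-S peaks, and the 198 early-S bins gather mainly but not only in the outer part. Over all chr21 bins the values run from 0% to 100%.

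Runs of bins of 1 class that follow each other in the table formed 31 domains, 7 early-S, 15 mid-S and 9 late-S, and a run could cross a gap without bins. They are numbered D1 to D31 from the short-arm side. The late-S domains held some of the longest stretches. D1 (chr21:9720001-15400000, 65 bins, with gaps of 2920 and 160 kb inside it) had a mean RT value of 2.03% and held LIPI, HSPA13 and NRIP1, and in no cell were over 50% of its bins at 2 copies. D5 (chr21:19560001-23840000), the domain with the most bins, had a mean of 7.06% and 1 coding gene, NCAM2, a neural adhesion molecule.

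D13 (chr21:29400001-31560000, 54 bins) had a mean of 2.86% and 37 coding genes, among them keratin-associated proteins, CLDN8, CLDN17, GRIK1, a glutamate receptor subunit, and TIAM1, an activator of Rac.  D27 had a mean of 5.36% and held DSCAM, a neuronal adhesion molecule, MX1 and MX2, interferon-induced antiviral proteins, and TMPRSS2, a surface protease.

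Among early-S domains D15 (chr21:32120001-34360000, 48 bins) had a mean of 95.6%, and the lowest cell still had 50% of its bins at 2 copies. It held IFNAR1, IFNAR2 and IL10RB, cytokine receptor chains, and ATP5PO, a subunit of ATP synthase. D29, which crosses gaps of 600 and 280 kb, had a mean of 94.3% and a lowest cell of 56.7%. D31, the outermost, had a mean of 91.7% but a lowest cell of 0%. D9, with APP, the amyloid precursor protein, stood at 89.2% between mid-S neighbours.

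Some domains were called in 1 state as a whole in most cells. D12 (chr21:28560001-29400000, 21 bins, with CCT8, LTN1, USP16 and the start of the BACH1 model) was wholly at 2 copies in 12 cells, wholly at 1 copy in 34 and mixed in 9, while its neighbours D11 and D13 were over 50% at 2 copies in 0 cells. Its share had a Spearman's rho of −0.10 with the replication score over 55 cells, against 0.66 for D2 (USP25, CXADR), which was mixed in 40 cells. D19 (CBR1, CHAF1B) was wholly at 2 copies in 39 cells and wholly at 1 copy in 7 (rho 0.08), and D25 (HMGN1, BRWD1, PSMG1) in 42 and 7. Bins were called by a 2-state hidden Markov model, in which neighbouring bins are not called independently. Short domains are also more easily of 1 state, and D19 has 12 bins and D25 10, against 49 in D2. The part of either in these blocks was not tested.

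**Figure D3:**
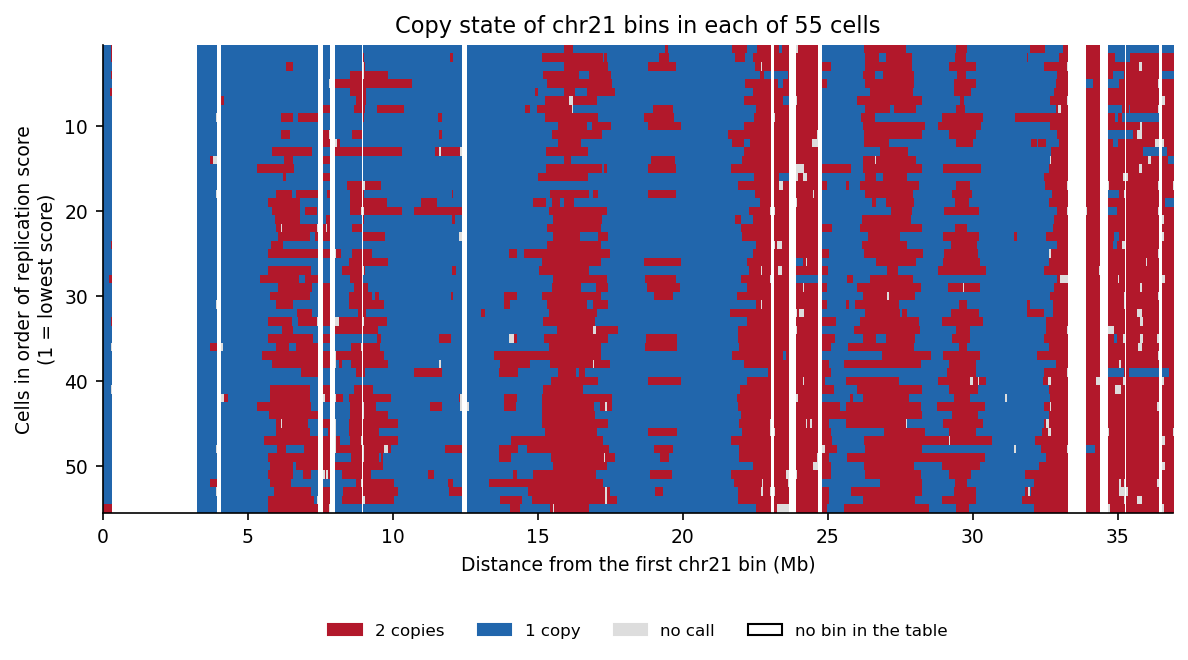
Copy state of each chr21 bin (horizontal axis, distance from the first bin in Mb) in each of the 55 cells (rows, lowest replication score at the top). Whole blocks change state together, such as the 12 cells in which D12 was wholly at 2 copies.

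The classes come from the same cells, so the order between them is largely set by their definition. Over the 26 domains of at least 10 bins, an early-S domain was less replicated than a late-S domain in 1.905% of the comparisons within a cell, an early-S less than a mid-S domain in 8.94%, and a mid-S less than a late-S domain in 11.1%. Within a class the order ran against the mean in 20.6% of comparisons between early-S domains, 36.5% between mid-S and 27.4% between late-S domains. All these percentages count ties in the total, so those within a class do not rank the classes. Early-S domains tied in 637 of 1155 comparisons, with 280 in order and 238 against. Mid-S domains tied in 380 of 2475, with 1192 in order and 903 against. For late-S domains there were 815 ties in 1980, with 622 in order and 543 against. A switch of state occurred at 2.00 ± 0.442 per 100 neighbouring bins on chr21 and 2.19 ± 0.367 elsewhere (SD, n = 55), and chr21 was the lower in 35 cells.

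Genes were grouped by role in lists that were chosen with earlier results of these data known, and a gene was called expressed when its RNA value (spliced, where no kind is named) was above 0 in over 50% of cells, as in 110 of the 657 chr21 genes (16.7%). Over all 657 genes 265 were early-S, 155 mid-S and 237 late-S, and over the 110 expressed genes 74, 19 and 17. The counts below describe the lists, and no list was tested against these shares. The 5 mitochondrial genes with a state were all early-S and all expressed, among them ATP5PO at a median of 435 TPM and ATP5PF at 239 TPM, both ATP synthase subunits, and MRPL39 at 131 TPM, a mitochondrial ribosomal protein. Of 9 replication and chromatin genes with a state 8 were early-S and 1 mid-S, and 8 were expressed, led by HMGN1, a nucleosome-binding protein. CHAF1B, a subunit of the factor that deposits histones behind the fork, had 23.9 TPM and an RT value of 78.2%, next to the early limit.

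The 9 genes of protein folding and turnover were all expressed, 5 early-S and 4 mid-S. CCT8, a chaperonin subunit, had 286 TPM, CSTB, a protease inhibitor, 203 TPM and UBE2G2, a ubiquitin-conjugating enzyme, 151 TPM. Of 13 transcription factors and kinases 6 were early-S, 1 mid-S and 6 late-S, and 10 were expressed. GABPA, at 40.1 TPM, was early-S, while RUNX1 (6.40 TPM), NRIP1 (4.19 TPM) and ZBTB21 (11.9 TPM) were late-S. The RUNX1 model spans 1216867 bases and was classed by the majority of its bins, while its start lies in early-S D19.

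The 3 interferon receptor cluster genes with a state were all early-S and expressed, IFNAR2 at 21.5 TPM, IFNAR1 at 10.6 TPM and IL10RB at 4.91 TPM. Of 6 metabolic enzymes with a state 5 were early-S and 1, SOD1, was mid-S, and 5 were expressed. Of 7 RNA processing genes 5 were early-S, among them RRP1B, a ribosome biogenesis factor, at 50.2 TPM, and SCAF4, a regulator of transcription termination, was mid-S at 29.6 TPM. RBM11, an RNA-binding protein, was late-S, and 6 of the 7 were expressed.

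Of 10 adhesion and neural genes 5 were late-S, and 4 were expressed, among them APP at 92.9 TPM. Of 59 keratin-associated protein genes and pseudogenes of that family 9 were early-S, 9 mid-S and 41 late-S, and 0 were expressed. None of the 3 claudin and 3 trefoil factor genes was expressed.

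Among chr21 genes 74 of 265 in the early-S class had detected spliced RNA, 19 of 155 in the mid-S class and 17 of 237 in the late-S class, or 27.9%, 12.3% and 7.17%, against 30.4%, 17.4% and 9.44% on the other chromosomes. The 237 late-S genes include 41 keratin-associated protein genes or pseudogenes, of which 0 were expressed. The median level of expressed genes was 21.8, 17.5 and 2.71 TPM on chr21 and 21.02, 15.7 and 8.13 TPM elsewhere. The late-S value on chr21 rests on 17 genes, with a lower quartile of 0.73 TPM. Long non-coding RNAs made up 6 of these 17 genes, against 12 of the 74 early-S genes, and the part of this mix was not tested. The median of log10(TPM + 1) was 0.79 higher in early-S than in late-S genes, and higher in 55 of 55 cells, against 0.38 on the other chromosomes. Genes above 0 in over 80% of cells gave 0.35 on chr21 and 0.16 elsewhere. The chr21 value rests on 58 early-S and only 7 late-S genes, against 430 late-S genes elsewhere. Per cell the chr21 difference had an SD of 0.34 and was above 0 in 54 of 55 cells.

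For unspliced RNA 25.7%, 16.1% and 16.5% of chr21 genes were expressed, against 26.8%, 22.4% and 18.3%. The difference of log10(count + 1), early-S minus late-S, was 0.70 on chr21 and 0.36 elsewhere. For genes above 0 in over 80% of cells it was 0.68 on chr21 and 0.68 elsewhere. Expressed early-S genes had a median length of 64059 bases, against 117050 for late-S genes. Per kb of gene the median unspliced counts of expressed genes were 0.129, 0.0134 and 0.00823 on chr21 and 0.0766, 0.0171 and 0.00926 elsewhere.

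**Figure D4:**
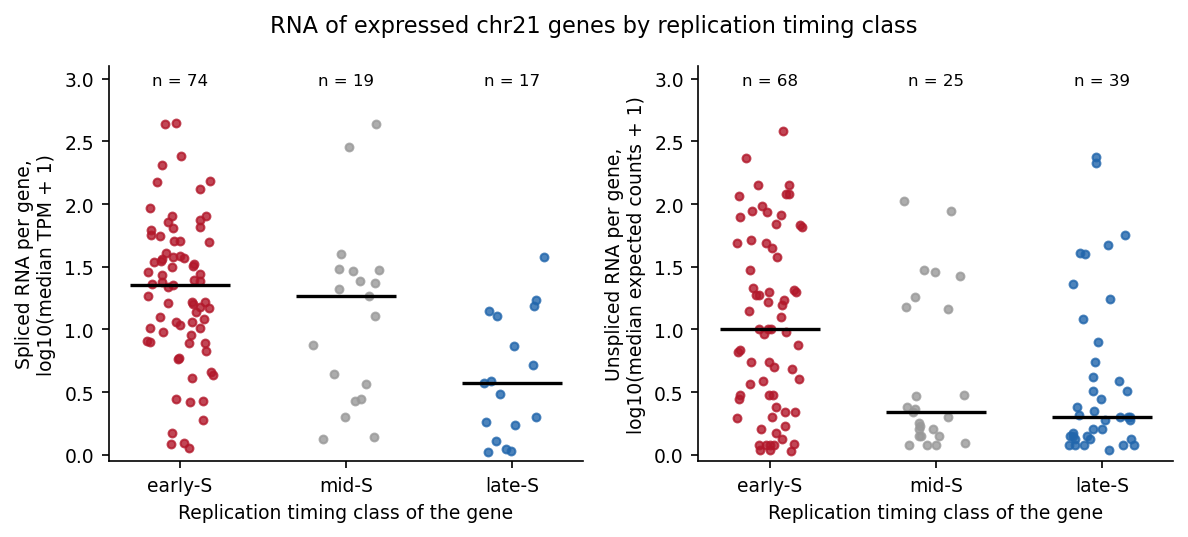
Median RNA of each expressed chr21 gene over 55 cells by RT class, for spliced RNA (left, log10 of TPM + 1) and unspliced RNA (right, log10 of counts + 1), with a bar at the class median. Late-S chr21 genes have a median of 2.71 TPM against 21.8 TPM in early-S genes.

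The most abundant late-S gene, HSPA13, a member of the heat shock protein family, lay in D1, where its bins were at 2 copies in 0% of cells. It was at 0 TPM in the lowest cell, 37.2 TPM at the median and 96.6 TPM in the highest, with RNA in 54 of 55 cells. C2CD2 and BACH1, a transcriptional regulator of oxidative stress genes, followed at 16.2 and 14.4 TPM. HMGN1 ran from 188 through 446 to 716 TPM and SOD1, the cytosolic superoxide dismutase, from 143 through 431 to 772 TPM. The lowest values of HMGN1 and SOD1 lay above the highest of HSPA13. DSCAM, with 836160 bases, was at 0 TPM in spliced RNA in all 55 cells and had a median of 6.93 unspliced counts, and NCAM2 had 16.4; reads of neighbouring or overlapping transcripts were not separated.

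Chr21 genes took 0.775% ± 0.0682 of spliced TPM and 1.01% ± 0.174 of unspliced counts over genes with a state (SD, n = 55). Pearson's r with the chr21 2-copy share was 0.153 for spliced and 0.214 for unspliced RNA across the 55 cells. Within cells numbered after 65 it was 0.355 and 0.0871, and within cells numbered up to 65 it was 0.140 and 0.372.

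Whether RNA differed between cells with a gene at 2 copies and at 1 copy was tested by the two-sided Wilcoxon rank-sum test over genes for which neither state held over 80% of cells. Of 25 chr21 genes tested in spliced RNA the median at 2 copies was the higher in 15 (60%, against 56.4% of all 2455 genes), with a median log2 difference of 0.23 against 0.07. Of the 25 genes 3 had an unadjusted p under 0.05 and were higher at 2 copies, where 5.82% of all genes did so, and 0 were higher at 1 copy, where 2.73% did. After Benjamini-Hochberg adjustment 0 of 2455 genes passed, and the lowest adjusted p on chr21 was 0.457.

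RCAN1, an inhibitor of calcineurin, was at 3.88 TPM in the lowest, 46.6 TPM in the median and 115.8 TPM in the highest of 28 cells with 2 copies, against 0, 28.4 and 95.04 TPM in 27 cells with 1 copy. The groups overlapped widely, and 6 of the cells with 1 copy were at 0. The log2 difference was 1.46 (SE 0.50, Wilcoxon p = 0.0149, permutation p = 0.0135). RCAN1 overlaps AP000326.5 on the same strand, so their reads cannot be told apart.

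CBR1, a carbonyl reductase, had medians of 37.2 TPM in 43 cells with 2 copies and 21.98 TPM in 12 with 1 copy (log2 difference 1.19, SE 0.68, permutation p = 0.0350). HUNK, a kinase, had 7.63 TPM in 35 cells and 1.49 TPM in 20 (1.02, SE 0.44, permutation p = 0.0410). In both the ranges of the groups overlapped. CBR1 overlaps SETD4. DYRK1A, a kinase, had medians of 22.1 TPM in 43 cells with 2 copies and 14.3 TPM in 12 with 1 copy (Wilcoxon p = 0.0516). It spans 5 bins, with both states in 7 cells. With the state of the bin at its start, an alternative chosen after seeing the data, medians were 20.2 TPM in 48 cells and 20.7 TPM in 7.

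In unspliced RNA the median at 2 copies was the higher in 14 of 35 chr21 genes (40%, against 51.6% of all 3159 genes), the median at 1 copy in 15, and 6 had equal medians. MIR99AHG, a long non-coding RNA, was the 1 gene that had an unadjusted p under 0.05 and was higher at 2 copies, where 3.77% of all genes were, and 1, BACH1, was higher at 1 copy, where 2.94% were. After adjustment 0 of 3159 passed, with a lowest adjusted p of 0.654 on chr21. The edgeR quasi-likelihood test, run on values rounded to whole numbers, called 143 of 3159 genes after adjustment, 1 of them on chr21, KCNJ6, a potassium channel. Before rounding, the medians of KCNJ6 were 1.37 counts at 2 copies and 1.36 counts at 1 copy, and its Wilcoxon p was 0.979.

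BACH1 had 0.98, 42.7 and 1035 counts in the lowest, median and highest of 12 cells with 2 copies, against 2.00, 277.6 and 2561 in 42 cells with 1 copy. The ranges overlapped, and the log2 difference was −2.18 (SE 0.90, permutation p = 0.0178). The model of BACH1 spans 12 bins across the border of D12 and D13, along which the RT value falls to 5.45% at its end, against 36.4% at its start, and 17 cells had both states within it. With the state of the bin at the start of the model, an alternative chosen after seeing the data, medians were 65.7 counts in 20 cells and 296.9 in 35 (p = 0.0649). It overlaps GRIK1 on the opposite strand.

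MIR99AHG had 1.00, 157 and 1842 counts in 32 cells with 2 copies, against 1.9, 18.1 and 863 in 23 cells with 1 copy (log2 difference 1.79, SE 0.78, permutation p = 0.0320). The ranges overlapped. It spans 19 bins, with both states in 22 cells, and with the state at its start p was 0.372. On residuals from the replication score the p-values were 0.454 for RCAN1, 0.0594 for CBR1 and 0.144 for HUNK in spliced RNA, and 0.0571 for MIR99AHG and 0.0313 for BACH1 in unspliced RNA.

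Within the library sets the p-values for RCAN1 were 0.212 in cells numbered after 65 and 0.0339 in cells numbered up to 65. For CBR1 they were 0.0814 and 0.0921, and for HUNK 0.0559 and 0.385. In unspliced RNA they were 0.341 and 0.0108 for MIR99AHG, and 0.0753 and 0.373 for BACH1. Each difference kept its sign in both sets.

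**Figure D5:**
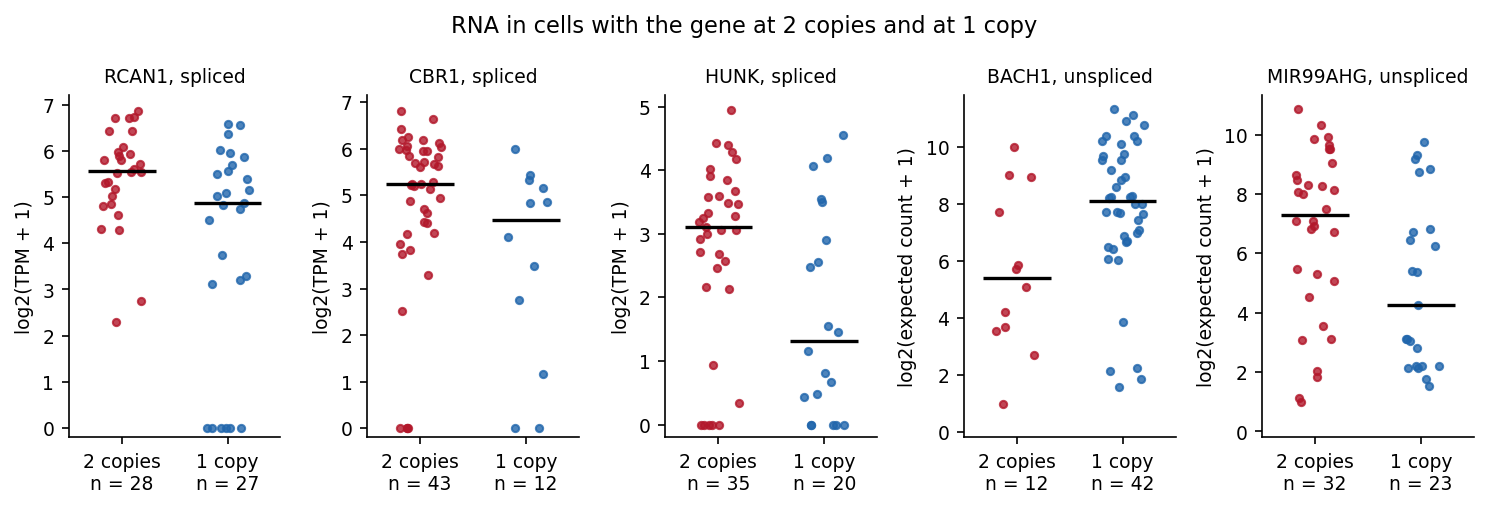
RNA per cell (log2 of TPM or counts + 1) of the chr21 genes with an unadjusted p under 0.05, at 2 copies (left) and 1 copy (right), with medians. Ranges overlap in every gene, as for RCAN1 with medians of 46.6 and 28.4 TPM.

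An additive model of log10(TPM + 1) on the replication score (all 56 cells) tested 18932 genes, 160 of them on chr21. It called 6 genes after adjustment, 0.0317%, and 0 on chr21. At an unadjusted p under 0.05 there were 17 of 160 on chr21 (10.6%) against 9.58% of all genes. COL6A2, a collagen chain of early-S D31, had medians of 11.1, 16.3 and 20.8 TPM in the 18 lowest-scored, 20 middle and 18 highest-scored cells (p = 0.00125 in the mgcv model, adjusted p = 0.266). DOP1B had 1.30, 7.47 and 8.95 TPM (p = 0.00259), and VPS26C, a subunit of a cargo-sorting complex, 26.9, 27.6 and 25.1 TPM (p = 0.0125), so its medians did not rise.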

How the data were processed

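A DNA and an RNA library were made from each sorted HAP1 cell and were joined by the cell number in their labels. The authors aligned DNA reads to hg38 (BWA 0.7.17-r1188 in the submitters' processing notes), corrected mappability with G1 cells, called 40-kb bins with a 2-state model in AneuFinder and filtered out blacklisted regions, and chromosomes 1, 15 and X were not included. The deposited copy state score is coded 2-copy, 1-copy or no call, and a gene's state equals the majority of its bins (99.9999% of states). The authors downsampled RNA reads and counted them with featureCounts. Spliced RNA was deposited as TPM. Unspliced RNA was made by the authors as gene-body minus exon reads with negatives set to 0. Its deposited values, titled TPM, were read as estimated counts, an inference from the values that remains uncertain.

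Tests were run with Python 3.11.15, scipy 1.17.1, R 4.3.3, edgeR 4.0.16, DESeq2 1.42.0 (size factors) and mgcv 1.9.3, and checked on simulated data. Wilcoxon tests used cells scored 40% to 70%, genes called in at least 50% of them, neither state in over 80% of called cells, and a value above 0 in over 50%. Log values used a pseudocount of 1. Permutation tests drew 100000 resamples. Log2 differences are of means of log2(value + 1). P-values were adjusted over all genes by Benjamini and Hochberg. The additive model took genes above 0 in at least 20% of cells. Named genes were those with an unadjusted Wilcoxon p under 0.05, the 3 highest by median TPM in each class, the 3 lowest by p of the additive model, and genes of the lists. KCNJ6 and genes outside that rule were chosen after their values were seen. The members and lists were chosen with earlier results of these data known. Alternatives covered filters, score ranges, pseudocounts, library sets, scaling and the state at the gene start.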

Additional observations from a re-analysis of the deposited data

How the results depend on the processing

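The chr21 share was 38.3% to 41.8% under its alternatives, and the classes changed to 180 early-S, 264 mid-S and 349 late-S bins with limits of 80% and 20%. The early-S minus late-S difference in spliced RNA was 0.35 with genes above 0 in over 80% of cells and 0 with no filter on low values, and in unspliced RNA it was 0 with no filter, since most genes are then at 0. The count of chr21 genes higher at 2 copies in spliced RNA, 3, was 1 with residuals on the replication score and 1 in cells numbered after 65 alone. The count higher at 1 copy, 0, was 2 in cells numbered up to 65 alone (ADAMTS1, CHAF1B). In unspliced RNA the count higher at 2 copies, 1, was 2 with genes above 0 in at least 20% of cells, 2 less the mean of the library set, 3 with counts divided by the total of the cell, and 0 with residuals, with cells after 65 alone and with the state at the gene start. The count higher at 1 copy, 1, was 2 in cells scored 45% to 65%, 3 with cells after 65 alone, 3 with edgeR, 0 with cells up to 65 alone and 0 with the state at the gene start. The causes were not tested. Of the alternative values of the main results 49 stayed within 1.5 times or the spread and 17 moved. Of those of named genes 38 kept their side of the threshold, 22 did not and 0 reversed. Some of the 38 only repeat the main p. The filters at over 80% and at least 20% of cells left the Wilcoxon p of every named gene unchanged. So did the stricter filter of the additive model for its named genes, and the state at the gene start for CBR1, which lies in 1 bin. RCAN1 had p from 0.0149 to 0.454. No paired analysis was possible because the groups tested against each other, cells with a gene at 2 copies and at 1 copy, are different cells with no shared number. A cell's number only joins its DNA and RNA libraries. The precision is limited by 55 cells of 1 experiment.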

Other observations

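A further 219 chr21 genes in the gene table had no copy state, 0 of them overlapping a bin, and 51 of them had TPM above 0 in over 50% of cells. They held 59.4% of the summed chr21 TPM, and 32.3% without 3 models of identical values. CBS, which joins homocysteine and serine, ran from 146 through 318 to 734 TPM, with a near-identical copy, CBSL, at a median of 12.6 TPM, so its reads are uncertain too. SON, a splicing cofactor, had a median of 203 TPM, GART, an enzyme of purine synthesis, 129 TPM, and DONSON, a replication fork protein, 89.1 TPM.

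The 3 gene models CH507-513H4.3, CH507-513H4.4 and CH507-513H4.6 had the same lowest, mean and highest values, with a median of 1682 TPM. U2AF1, a splicing factor, had 98.6 TPM and its near-identical copy U2AF1L5 168 TPM, so how reads were split between them is uncertain.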
